A study of Drosophila melanogaster with 30 samples.

Results

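The heads of aged flies with fragmented sleep were set against the heads of young flies, over every gene with enough reads to be tested. Both sets of columns were taken by their sample names from a table of reads per gene, 10 of its 30 libraries, and 9088 of its 17559 genes had enough reads in the heads. Each library came from the head of 1 male of the Cantonized w1118 strain, which carries a mutation of the eye colour gene white in every group used here. The aged SF (sleep fragmentation) flies were 25 days old and had been picked in a sleep assay for fragmented sleep, the aged NSF flies were also 25 days old and slept normally, and the young flies were 5 days old and slept normally. Every group held 5 heads. Bodies of the same 3 kinds of fly were used at the end. The labels name no transgene or drug. Sleep and age differ together between the aged SF and the young flies, so that their parts in a difference cannot be told apart in that comparison alone.

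A fly head is not brain alone: it holds brain, compound eyes, fat body, muscle, cuticle and circulating hemocytes. Innate immunity in flies runs mainly through the Toll and Imd pathways, in which recognition proteins meet microbial cell wall, a signalling cascade frees an NF-kB factor, and that factor turns on secreted antimicrobial peptides. Such peptide genes are known to be more active in old flies. Genes of the mitochondrial respiratory chain are known to be less active with age in several animals. Fragmented sleep, in which bouts become short and many, is a known feature of old flies.

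The heads held 2137220 to 2535467 reads counted on genes in the aged SF group and 1685034 to 3597530 in the young group, and 3 reads, the floor used for a gene without any, correspond to 0.834 to 1.78 CPM (CPM, a gene's reads relative to the TMM-scaled size of its library). The tissue label held in all 10 heads: the photoreceptor opsin gene ninaE had 20929.5 to 28111 CPM in aged SF heads and 17316 to 32189.5 CPM in young heads, and the neuronal gene elav had 77.5 to 116 CPM in aged SF heads and 103 to 149.7 CPM in young heads. The testis, male accessory gland and gut markers summed to 4.85 to 12.1, 3.97 to 11.8 and 3.99 to 14.4 CPM in aged SF heads and 4.72 to 13.6, 4.10 to 16.7 and 3.89 to 11 CPM in young heads, and 1 of their 46 members had enough reads to be tested. Each head is a separate fly. On the first principal component, which held 41.1% of the variance among the 15 heads, aged SF heads lay between 14.1 and 33.4, aged NSF heads between 14 and 37 and young heads between -58.9 and -45.2.

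Roughly as many genes went up as down. In aged SF heads 2293 of 9088 genes changed relative to young heads (25.2%), of which 1185 rose (13%) and 1108 fell (12.2%), by edgeR's quasi-likelihood test at a Benjamini-Hochberg adjusted p under 0.05. Of these, 913 changed at least 2-fold, 576 up and 337 down, and the median log2 fold change of all genes was -0.0027. All 5 aged SF heads lay above all 5 young heads for 876 genes (9.64%) and below them for 781 genes (8.59%). The authors' deposited table lists 2434 genes for the same pair of groups, 1226 with a log2 value above 0 and 1208 below 0. The balance shifted with the level of the gene. Among the 585 genes of at least 300 CPM (mean of both groups) 14.53% rose and 31.3% fell, and among the 1451 genes of 3 to 10 CPM 7.93% rose and 2.76% fell.

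**Figure D1:**
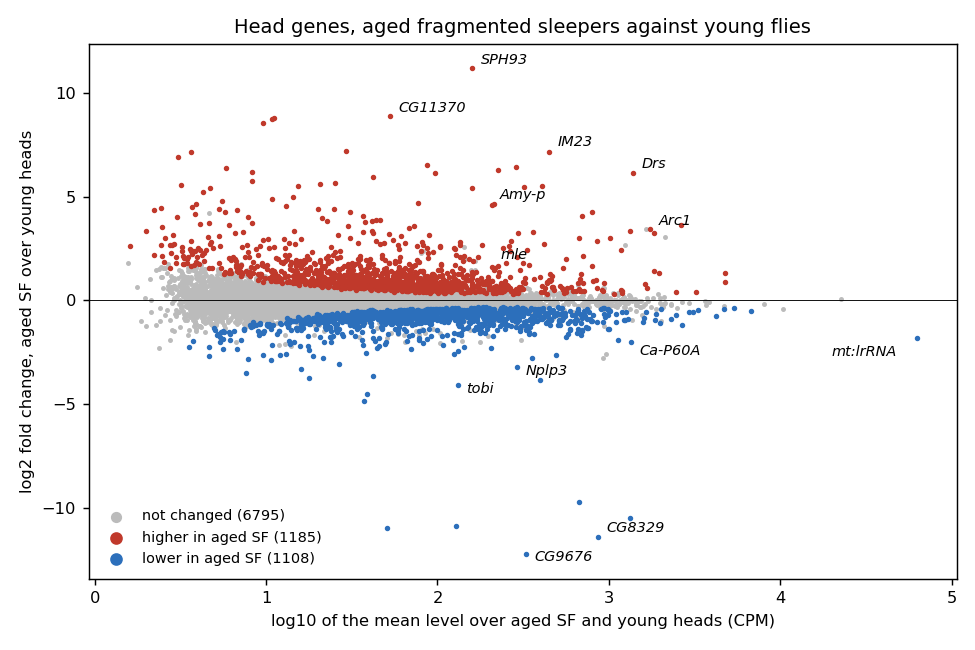
Log2 fold change of every tested gene (vertical axis, aged SF over young heads) against the log10 of its mean level in CPM (horizontal axis), 1 point a gene, with the 1185 genes that rose in red, the 1108 that fell in blue and the rest in grey. SPH93 stands highest and CG9676 lowest, and the blue points reach further to the right than the red ones.

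Immune effector genes were among those with the largest increases. CG11370 (8.88), CG9757 (8.77) and the cuticular protein gene Cpr49Ac (8.56), outside that group, rose more on the log2 scale than the immune genes named here other than SPH93. The serine protease homologue gene SPH93, on chromosome 2L at 17454263 to 17455923, had 503, 281, 343, 289 and 174 CPM in aged SF heads, against 0, 0, 0, 0 and 0.41 CPM in young heads. Every aged SF head held at least 174 CPM and 4 of the 5 young heads held no read. The ratio of reads, 3824 in aged SF heads over 1 in young heads, was 4129 after scaling, with a 95% counting interval of 741 to 163147 (log2 fold change 11.19 ± 0.43, adjusted p = 1.43e-13, and 12.61 without young head 5, which held that read). The antifungal peptide gene Drs had 1478, 4178, 1520.4, 4409.9 and 2056 CPM in aged SF heads, against 19.9, 19.7, 27.9, 71.8 and 51.7 CPM in young heads. Aged SF heads 2 and 4 were the highest, and no aged SF head came near a young one (log2 fold change 6.16 ± 0.73, adjusted p = 4.98e-05). IM23 (FBgn0034328, chromosome 2R, 18382704 to 18383235, minus strand), now named BomBc1, encodes a Bomanin, a short secreted peptide made under Toll control, and had 414, 2075, 539, 925 and 501 CPM in aged SF heads, against 0, 9.44, 4.53, 9.1 and 6.97 CPM in young heads. Aged SF head 2 stood far above the other 4, which still exceeded all young heads (log2 fold change 7.14 ± 0.92, adjusted p = 9.45e-05).

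Both families of effector moved as groups. Over all genes tested 13% rose and 12.2% fell, which are the shares to set beside every list below. Of 15 antimicrobial peptide genes 11 rose (73.3%) and none fell, with a median log2 fold change of 3.76 against -0.0027 over all genes. In the list of Bomanins and further Toll targets it was 12 of 17 (70.6%) and none, with a median of 2.64. Among the first were edin (6.54), the attacin gene AttD (5.93) and the cecropin genes CecB (5.62), CecA1 (5.49) and CecA2 (5.43), which kill bacteria. AttA (3.35, adjusted p = 0.02) lost its call without aged SF head 2 or with the compared groups alone (adjusted p = 0.0511 in both). Drosocin, Dro (3.25, adjusted p = 0.0319), lost it without aged SF head 2 or 4 or young head 1, 2 or 3 (adjusted p of 0.0624 to 0.0695) or with the compared groups alone (0.0787). The attacin gene AttC (3.03, adjusted p = 0.0545) and the diptericin gene Dpt (3.43, adjusted p = 0.0618) did not pass, but did so without young head 5 (0.000954 and 0.000487) and with DESeq2 (0.00591 and 0.00585). Young head 5 and aged SF head 2 carried much of the spread: without young head 5 the log2 fold changes of edin, CecA1, CecA2, CecB, AttA and Dro were 8.85, 7.33, 7.04, 6.75, 5.03 and 5.26, and without aged SF head 2 those of edin, CecA1 and CecA2 were 5.5, 4.72 and 4.66. Among the second list, the Bomanin genes IM1 (4.24) and IM3 (2.88) rose.

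The flies did not carry these peptides evenly. Antimicrobial peptide genes summed to 7727, 46414, 12999, 25273 and 12370 CPM in aged SF heads 1 to 5 and to 677, 757, 549.9, 436 and 7762 CPM in young heads 1 to 5. Young head 5 thus held slightly more than aged SF head 1, while the other 4 young heads lay far below. Without young head 5 the number of these genes that rose was 14 of 15, without aged SF head 2 it was 9, and the number of genes changed over all genes was 2032 and 1928. The Bomanin and Toll-induced genes did not overlap between the groups: they summed to 7763, 14931, 7939, 10021 and 4894 CPM in aged SF heads and 1354 to 2107 CPM in young heads.

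Recognition and signalling genes rose with the peptides. In the list of immune recognition and NF-kB signalling 17 of 31 tested genes rose and none fell, with a median log2 fold change of 0.70. PGRP-SA (FBgn0030310, chromosome X, 11561643 to 11562779, plus strand), the peptidoglycan receptor upstream of Toll, had 155, 216, 135, 198 and 184 CPM in aged SF heads, against 28.7, 29.2, 20.1, 28.8 and 35.3 CPM in young heads, so that even the lowest aged SF head exceeded every young head (log2 fold change 2.63 ± 0.19, adjusted p = 9.58e-11). The Toll ligand gene spz (1.44) and dl (1.35), an NF-kB factor of the Toll pathway, rose too. On the Imd side Rel (1.66), its NF-kB factor, rose together with the feedback inhibitor pirk (1.82) and the peptidoglycan-degrading amidase genes PGRP-SC2 (6.42) and PGRP-LB (2.85), which damp the pathway. GNBP-like3 rose as well (5.51, and 4.86 without aged SF head 2), and PGRP-SC2 stood at 8.32 without young head 5. The gene for the Toll receptor itself, Tl (0.093, adjusted p = 0.781), did not pass. Neither did Dif, the other NF-kB factor of the Toll pathway (-0.1, adjusted p = 0.911), whose direction turned without young head 1 (0.72, adjusted p = 0.061) or aged SF head 5 (0.034).

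Other arms of defence were mixed. Of 10 thioester protein and melanisation genes 7 rose and none fell (median 1.33). They included Tep2 (2.4), Tep3 (1.39, with 25.6% of its exonic sequence shared with an antisense gene) and Tep4 (1.28), relatives of complement factors, Spn27A (1.39), a serpin that restrains melanisation, and the clip protease gene Hayan (2.34, and 1.7 without aged SF head 2, with 36.2% shared with an antisense gene). Among 9 JAK-STAT and Turandot genes 3 rose (33.3%, against 13% of all genes) and none fell (median 0.20). The 3 were the cytokine gene upd3 (3.7, and 4.97 without young head 3), the receptor gene dome (0.79) and the feedback inhibitor gene Socs36E (1.7), and the stress peptide gene TotA had a log2 fold change of -0.16 (adjusted p = 0.903). One Turandot or JAK-STAT gene fell without aged SF head 1 or 3. The iron transport gene Tsf1, which is induced by infection, rose by 1.33 on the log2 scale (adjusted p = 0.0198).

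Hemocyte and basement membrane genes went the other way, with 5 of 11 lower, none higher and a median of -1.03. Hml, the clotting protein hemolectin of hemocytes, averaged 13.8 ± 5.56 CPM in aged SF heads and 33.5 ± 9.01 CPM in young heads (SD, n = 5 each) (log2 fold change -1.27 ± 0.28, adjusted p = 0.00125). The collagen IV genes Cg25C (-1.44) and vkg (-1.03) and the peroxidasin gene Pxn (-1.12) fell. LanA (-1.08, adjusted p = 0.0402), a laminin chain, lost its call without aged SF head 2, 4 or 5 or young head 1 or 5 (adjusted p of 0.0689 to 0.198) or with the compared groups alone (0.0572). In whole heads, fewer cells of a type and less RNA per cell cannot be told apart. The hemocyte receptor genes NimC1, eater and He had too few reads to be tested, with 6, 5 and 11 reads in all aged SF heads and 17, 25 and 9 in all young heads.

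**Figure D2:**
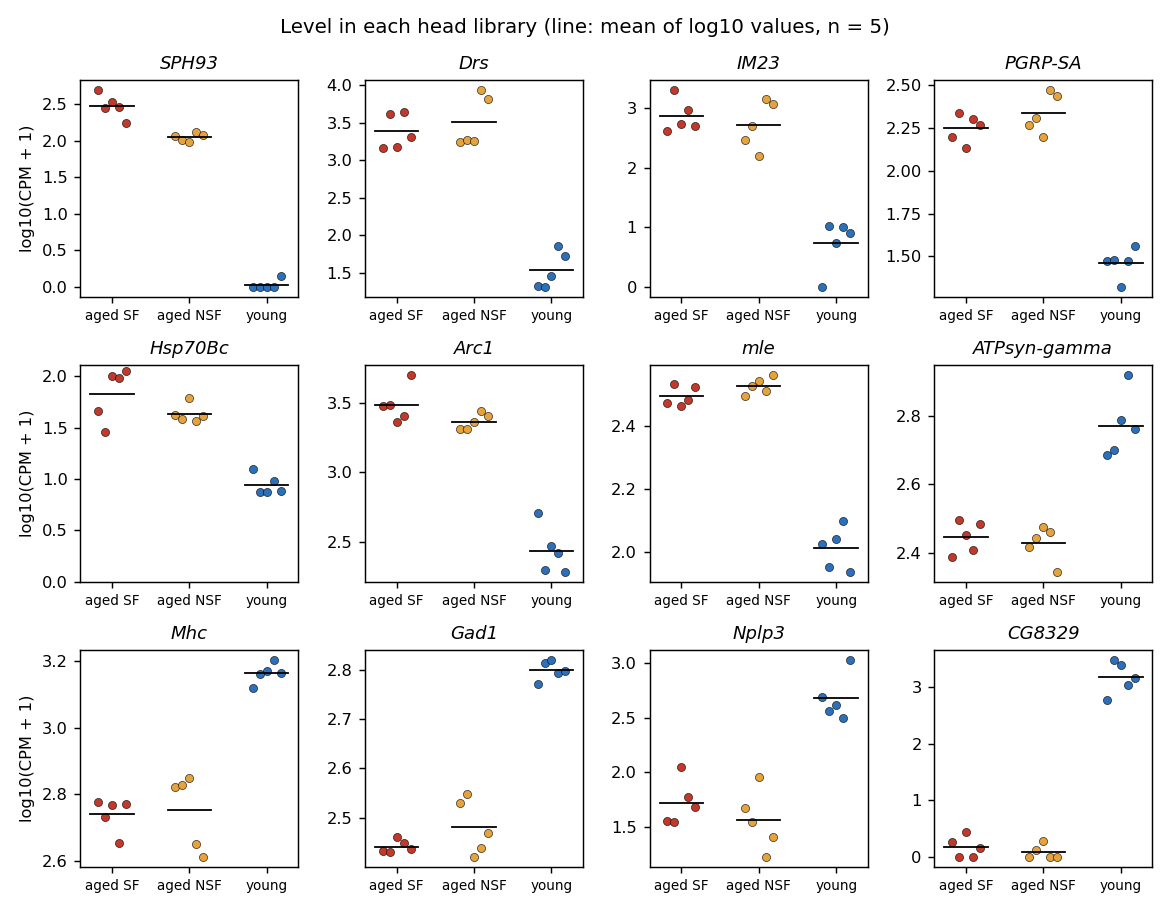
Level of 12 genes in each of 15 heads, as log10(CPM + 1) on the vertical axis, with aged SF, aged NSF and young heads from left to right, 1 point a fly and a line at the mean of the logged values. In all 12 panels the aged SF points and the young points do not overlap.

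Inducible chaperones rose, with 11 of 16 heat shock genes higher, 3 lower and a median of 1.43. Hsp70Bc (FBgn0013279, chromosome 3R, 12509076 to 12511461, plus strand) had 44.6, 27.5, 99.98, 96 and 112 CPM in aged SF heads, against 11.6, 6.39, 6.48, 8.6 and 6.56 CPM in young heads, with aged SF heads 3, 4 and 5 the highest and aged SF heads 1 and 2 still above all young heads (log2 fold change 3.26 ± 0.35, adjusted p = 1.33e-06). Hsp70Bb (4.91, and 6.13 without young head 2) and Hsp70Ab (4.77, and 6.14 without young head 1) rose too. Hsp70 genes are near-identical copies. Alignments of mapping quality below 8 were removed, so reads that fit several copies may be missing from these counts. The small chaperone gene Hsp26 had 73.1, 52.7, 84, 184 and 408 CPM in aged SF heads, against 23.1, 16.4, 25.3, 14.2 and 13.1 CPM in young heads, with aged SF head 5 far above the rest (log2 fold change 3.14 ± 0.54, adjusted p = 0.000934, and 2.44 without that head). Hsp83 (0.79), the fly Hsp90, and stv (0.91), an Hsp70 co-chaperone, rose by less. Hsp67Ba fell (-1.0), and 75.9% of its exonic sequence overlaps an antisense gene. The mitochondrial chaperone gene Hsp60 (-0.39) and Hsp67Bc (-1.18) also fell, but without young head 4 their adjusted p was 0.057 and 0.0989 and 1 gene of the list fell in place of 3. Hsp67Bc was also lost without aged SF head 2 (0.0705) or young head 5 (0.0564).

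Of 17 genes of the unfolded protein response 5 rose (29.4%, against 13% of all genes) and none fell (median 0.21). The disulfide isomerase gene CaBP1 (1.24) and the oxidase gene Ero1L (0.76) kept their calls when any head was left out. The count was 3 without aged SF head 2 or 5 or young head 1 or 4, and 2 without young head 5, which is near the share of all genes. Of 17 antioxidant genes 4 rose (23.5%, against 13% of all genes) and 2 fell (11.8%, against 12.2%), with a median of 0.099. The ferritin gene Fer1HCH (0.61), the thioredoxin gene Trx-2 (0.69) and the peroxiredoxin gene Jafrac1 (0.54) rose. Both superoxide dismutase genes, cytosolic Sod (-0.65) and mitochondrial Sod2 (-0.76), fell. Among 29 genes for glutathione S-transferases, 6 rose (20.7%) and 3 fell (10.3%; median -0.0155), with GstD2 (4.05, and 3.46 without aged SF head 5) and GstD1 (1.0) among the first and se (-2.18), which acts in the synthesis of red eye pigment, the most reduced.

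Genes of energy production fell, in the nuclear and in the mitochondrial genome. All 13 ATP synthase genes fell (median log2 fold change -1.04), as did 28 of 32 nuclear genes of complex I (median -0.89) and 19 of 23 genes of complexes II to IV and cytochrome c (median -0.85), and none of these 68 genes rose. ATPsyn-gamma (FBgn0020235, chromosome 3R, 29747704 to 29749163, minus strand), the rotor subunit of the synthase, had 244, 313, 282, 255 and 303 CPM in aged SF heads, against 484, 499.6, 611, 829 and 574 CPM in young heads. The highest aged SF head lay below the lowest young head (log2 fold change -1.1 ± 0.14, adjusted p = 1.93e-06). The catalytic subunit gene ATPsyn-beta (-0.93), the alpha subunit gene blw (-1.04), the complex I gene NDUFS3 (-1.04), the Rieske protein gene RFeSP (-1.19), the cytochrome oxidase gene CoIV (-1.0) and the cytochrome c gene Cyt-c-p (-0.9) fell by similar amounts. ATP synthase genes together held 5011 to 5630 CPM in aged SF heads and 9025 to 14079.8 CPM in young heads, with young head 4 the highest.

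Genes of the mitochondrial genome fell too, 11 of 14 with none higher and a median of -0.98. The large ribosomal RNA mt:lrRNA (FBgn0013686, the mitochondrial genome, 12735 to 14058, minus strand) had 38087, 29908, 17520.5, 20214 and 35607 CPM in aged SF heads, against 72004, 77464, 97977, 137252 and 106558 CPM in young heads. Young head 4 was the highest and aged SF head 3 the lowest, and the groups did not overlap (log2 fold change -1.8 ± 0.23, adjusted p = 2.03e-05). This 1 transcript took 1.80 to 3.96% of all counted reads in aged SF heads, 3.74 to 5.16% in aged NSF heads and 7.09 to 11.5% in young heads. Among the messenger RNAs, mt:CoII (-0.89) and mt:CoIII (-0.76) of complex IV and mt:ND4 (-1.39), mt:ND5 (-1.34) and mt:ND4L (-2.14) of complex I fell. The most abundant, mt:CoI (-0.52, adjusted p = 0.011), had an adjusted p of 0.0504 without young head 1. The libraries were made from poly(A) RNA, and no value here tells the amount of an RNA from the length of its tail.

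Of 13 genes of glycolysis and lactate dehydrogenase 8 fell and 1, for lactate dehydrogenase, rose. ImpL3 (now Ldh, FBgn0001258, chromosome 3L, 6259105 to 6262694, minus strand), which turns pyruvate into lactate, had 203, 284, 162, 246 and 172 CPM in aged SF heads, against 59.2, 42.2, 28.5, 31.9 and 20.5 CPM in young heads, and no young head reached the lowest aged SF head (log2 fold change 2.54 ± 0.39, adjusted p = 0.000362). The genes for glyceraldehyde-phosphate dehydrogenase, Gapdh1 (-1.05), pyruvate kinase, PyK (-0.93), triose-phosphate isomerase, Tpi (-0.95), and the hexokinase Hex-C (-2.33) fell, and the median of the list was -0.43. A second gene of the list rose without aged NSF head 5 or young head 4 or 5 or with DESeq2.

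Of 23 muscle genes 17 fell and none rose (median -0.70). The myosin heavy chain gene Mhc (FBgn0264695, chromosome 2L, 16766566 to 16788766, plus strand) had 597, 539.8, 584, 449 and 588 CPM in aged SF heads, against 1318, 1448, 1487, 1601 and 1459 CPM in young heads, with every aged SF head below every young head (log2 fold change -1.41 ± 0.15, adjusted p = 8.99e-08). The calcium pump gene Ca-P60A (FBgn0263006, chromosome 2R, 23925077 to 23935884, minus strand), the fly SERCA, which muscle and neurons share, had 499, 610.2, 536, 513 and 506 CPM in aged SF heads, against 1815, 1989, 2328, 2494 and 2136 CPM in young heads, and both groups were tight (log2 fold change -2.01 ± 0.14, adjusted p = 9.69e-11). Tropomyosin Tm2 (-1.39), troponin I wupA (-1.18) and the myosin light chain Mlc2 (-1.27) fell. Act88F, the actin of flight muscle, was at 0.379 to 5.76 CPM in aged SF heads and 19.4 to 46.1 CPM in young heads (log2 fold change -3.32 ± 0.46, adjusted p = 6.49e-06).

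**Figure D3:**
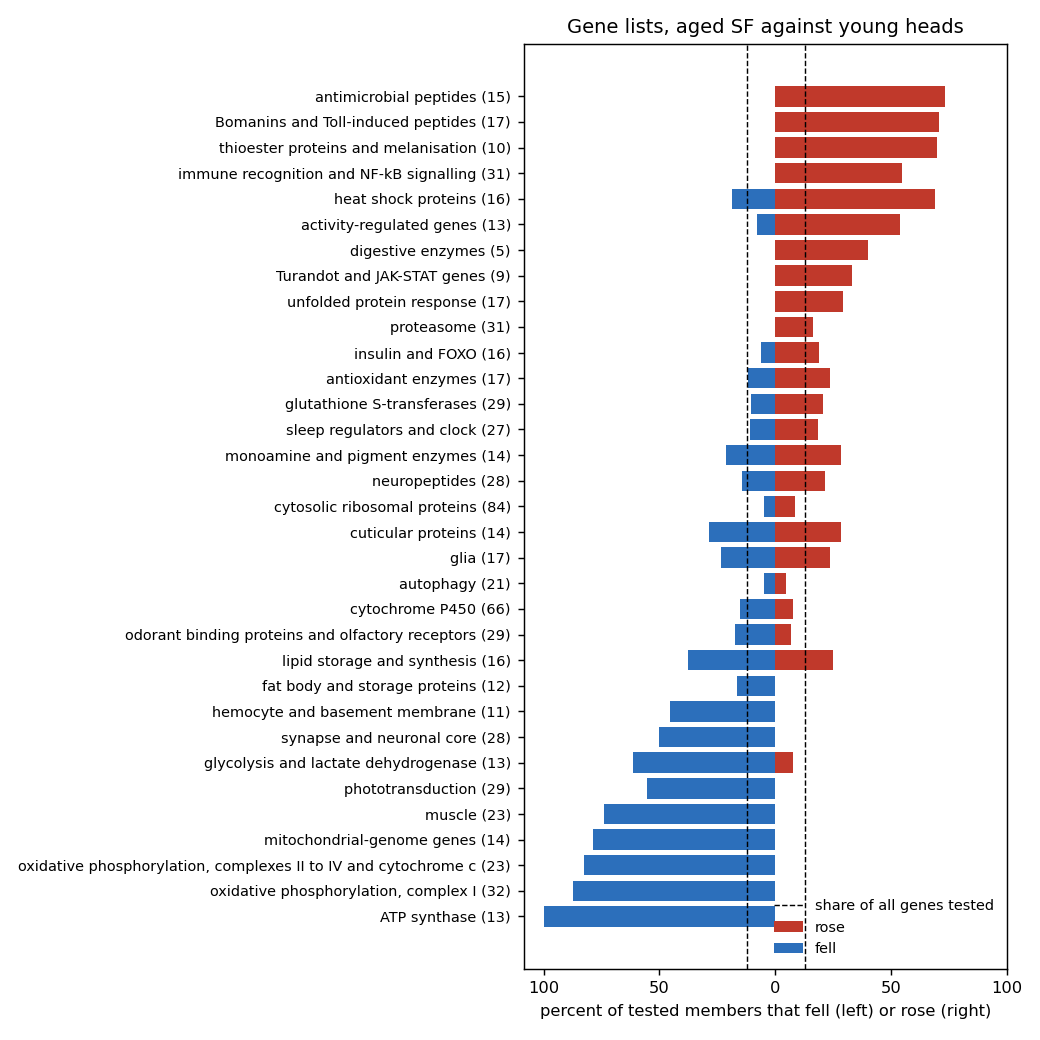
Percent of tested members that fell (blue, left) or rose (red, right) in aged SF relative to young heads, 1 row a gene list with the number of tested members in brackets. Dashed lines mark the shares over all genes tested, 13% up and 12.2% down. The antimicrobial peptide, Bomanin, immune recognition, thioester protein and heat shock lists lie far to the right, while the ATP synthase, respiratory chain and muscle lists lie far to the left. The hemocyte list also lies to the left (45.5% fell, none rose).

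In the list of lipid storage and synthesis 6 of 16 genes fell (37.5%, against 12.2% of all genes) and 4 rose (25%, against 13%), with a median of -0.17. Those that fell include 3 genes of the path from citrate to fatty acid: ATPCL (-0.87), which makes acetyl-CoA, ACC (-1.63), which makes malonyl-CoA, and CG3523 (-1.89), a fatty acid synthase now named FASN1. The 4 that rose encode lipases: bmm (0.86), the fly adipose triglyceride lipase, Hsl (0.66), the hormone-sensitive lipase, Lip4 (0.81) and Lip3 (2.38), which had an adjusted p of 0.052 without aged SF head 3 and a log2 fold change of 3.35 without young head 1. Rfabg (-1.17), the lipoprotein that carries fat in hemolymph, fell.

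Of 12 tested fat body and storage genes 2 fell (16.7%, near the share of all genes) and none rose, Rfabg and tobi (median -0.37). With DESeq2 4 fell. Tobi (FBgn0261575, chromosome 3R, 25344761 to 25346921, minus strand), a glucosidase under insulin and glucagon-like control, had 4.06, 5.76, 30.3, 21.6 and 11.9 CPM in aged SF heads, against 65.2, 49.2, 55.1, 828 and 241 CPM in young heads. Young head 4 stood far above the other young heads, and all aged SF heads lay below all young heads (log2 fold change -4.06 ± 0.91, adjusted p = 0.00568, and -2.79 without young head 4). The larval serum protein genes Lsp2 (-2.61, adjusted p = 0.0813) and Lsp1beta (-1.94, adjusted p = 0.0544) did not pass, but both did with DESeq2 (0.0205 and 0.0372). Lsp1beta also passed without aged SF head 3 (0.0394), without aged NSF head 5 (0.0358) and with the compared groups alone (0.0395). One gene of the list rose without young head 4.

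Of 16 insulin and FOXO genes 3 rose (18.8%, against 13% of all genes) and 1 fell (6.25%, against 12.2%), with a median of -0.042. The insulin receptor gene InR had 122, 131, 75.3, 132 and 135 CPM in aged SF heads, against 48.1, 42.5, 43.4, 28.3 and 63.2 CPM in young heads, without overlap (log2 fold change 1.4 ± 0.27, adjusted p = 0.00096), and the kinase genes Akt1 (0.91) and Pi3K92E (0.86) downstream of it rose too. The insulin-like peptide gene Ilp3, made in neurosecretory cells of the brain, averaged 2.43 ± 2.25 CPM in aged SF heads and 18.8 ± 7.41 CPM in young heads (SD, n = 5 each) (log2 fold change -2.89 ± 0.55, adjusted p = 0.000292, and -3.49 without aged SF head 4). The amylase genes Amy-p (4.61) and Amy-d (3.26), which digest starch, were the 2 of 5 tested digestive enzyme genes that rose (40%, against 13% of all genes), and none fell. The 2 are near-identical copies, and reads that fit both may have been removed by the limit on mapping quality.

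Neuronal genes fell in part. Of 28 synaptic and neuronal core genes 14 fell and none rose (median -0.38), and 1 rose without young head 5. Gad1 (FBgn0004516, chromosome 3L, 4074077 to 4088744, minus strand), which makes the inhibitory transmitter GABA, had 269.5, 268, 288, 279.6 and 272 CPM in aged SF heads, against 589, 649.9, 660.00, 621 and 627 CPM in young heads, and the spread within each group was small beside the gap between them (log2 fold change -1.19 ± 0.12, adjusted p = 2.63e-08). VGAT (-1.01), which loads GABA into vesicles, Cha (-0.85), which makes acetylcholine and shares 15.1% of its exonic sequence with VAChT, and VGlut (-0.57), the vesicular glutamate transporter, fell as well. So did genes of the vesicle cycle: Snap25 (-0.96), comt (-0.84), which takes SNARE complexes apart, the dynamin gene shi (-0.73), and nwk (-0.85). The active zone gene brp (-0.1, adjusted p = 0.711) and the neuronal marker elav (-0.38, adjusted p = 0.067) did not pass, though elav did without young head 4 (0.0315).

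In the eye 16 of 29 phototransduction genes fell and none rose (median -0.42), and 1 rose without young head 4. The G protein subunit gene Gbeta76C (-1.03), the eye protein kinase C gene inaC (-1.01), its scaffold inaD (-0.84), the lipid enzyme gene CdsA (-0.94) and the sodium-calcium exchanger gene Calx (-0.8) fell. Neither the main rhodopsin gene ninaE (0.061, adjusted p = 0.803) nor the channel gene trp (-0.16, adjusted p = 0.401) passed. The arrestin gene Arr1, one of the largest losses in CPM, fell by 0.39 on the log2 scale (adjusted p = 0.0217) and lost its call without aged SF head 1 (0.0738) or 2 (0.0887) or with the compared groups alone (0.0658).

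Of 17 glial genes 4 rose and 4 fell (23.5% each, against 13% and 12.2% of all genes; median -0.050). Eaat1 (FBgn0026439, chromosome 2L, 9333567 to 9341925, plus strand), the glutamate transporter of astrocyte-like glia, had 220.4, 159.8, 177, 145 and 141 CPM in aged SF heads, against 491, 356, 424, 426 and 338 CPM in young heads, with every young head above every aged SF head (log2 fold change -1.27 ± 0.15, adjusted p = 4.13e-07). The astrocyte gene alrm (-1.53) fell with it. Both moody (1.34), a receptor of the glia that form the blood-brain barrier, and loco (1.49), the regulator of G protein signalling that acts with it, rose, as did the septate junction gene Gli (1.25) and e (1.71), which conjugates amine transmitters. The pan-glial marker repo (-0.05, adjusted p = 0.912) did not pass.

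Of 28 neuropeptide genes 6 rose (21.4%) and 4 fell (14.3%), not far from the 13% and 12.2% of all genes (median 0.23). Nplp3 (FBgn0042201, chromosome 3L, 16318024 to 16318690, plus strand), a neuropeptide-like precursor, had 34.9, 34.1, 111, 58.4 and 47.2 CPM in aged SF heads, against 483, 361, 416, 315 and 1068 CPM in young heads, with young head 5 the highest and aged SF head 3 the highest of its group, well below any young head (log2 fold change -3.21 ± 0.53, adjusted p = 0.000721). SIFa (FBgn0053527, chromosome 2R, 24577566 to 24578143, minus strand), the SIFamide precursor made in a small group of brain cells, had 17.5, 10.6, 13, 10.6 and 15.4 CPM in aged SF heads, against 56.4, 31.1, 35.6, 41 and 46.3 CPM in young heads, again without overlap (log2 fold change -1.64 ± 0.28, adjusted p = 7.33e-05); 21.1% of its exonic sequence overlaps another gene. The precursor genes of myosuppressin, Ms (0.82), corazonin, Crz (1.09), and myoinhibitory peptide, Mip (0.64), rose.

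Sleep and clock genes gave 5 of 27 higher (18.5%) and 3 lower (11.1%), near the shares of all genes (median -0.18), and 1 lower without young head 2 or 5. The clock gene per (FBgn0003068, chromosome X, 2685580 to 2692780, plus strand) had 125, 112, 83.5, 75.1 and 103 CPM in aged SF heads, against 26.4, 52.5, 35.6, 24.8 and 40.6 CPM in young heads, with all aged SF heads above all young heads (log2 fold change 1.46 ± 0.19, adjusted p = 2.8e-06). Its partner tim (0.89) and the clock regulator vri (1.38) rose, and cry (-0.81), which encodes the light receptor of clock neurons, fell. The activators Clk (-0.28, adjusted p = 0.46) and cyc (0.34, adjusted p = 0.232) did not pass. No time of day is given for the collection, so clock phase was not tested. The gene ple (1.88), for tyrosine hydroxylase in dopamine synthesis, rose. Homer (-0.48, adjusted p = 0.0327), a postsynaptic scaffold, lost its call without aged SF head 1, 2 or 5 or young head 2 or 5 (adjusted p of 0.0553 to 0.114).

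Activity-regulated genes, which neurons turn on after stimulation, rose in 7 of 13 cases and fell in 1 (median 0.55). Arc1 (FBgn0033926, chromosome 2R, 14357927 to 14360297, minus strand), a capsid-forming relative of a mammalian synaptic plasticity gene, had 2989, 3057, 2288, 2537 and 5005 CPM in aged SF heads, against 507, 197, 293, 260.4 and 192 CPM in young heads. Aged SF head 5 was the highest and young head 1 the highest of its group, and no head of 1 group came near the other (log2 fold change 3.45 ± 0.29, adjusted p = 5.36e-07). Its neighbour Arc2 (2.13), the Jun gene Jra (0.86) and the JNK phosphatase gene puc (0.78) rose, while Hr38 (0.34, adjusted p = 0.471) and sr (-0.59, adjusted p = 0.134), markers of neuronal firing, did not pass.

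Of 29 odorant binding protein and olfactory receptor genes 2 rose and 5 fell, against 13% and 12.2% of all genes (median -0.90). The number that fell was 3 without aged SF head 2. Obp19b (-3.73, and -4.35 without aged SF head 3), Obp99b (-2.63) and Obp56g (-2.05) were reduced, and Obp56a (3.15) and Obp56d (0.44) were raised. These proteins carry odorants and other small molecules in the fluid of sensory hairs.

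**Figure D4:**
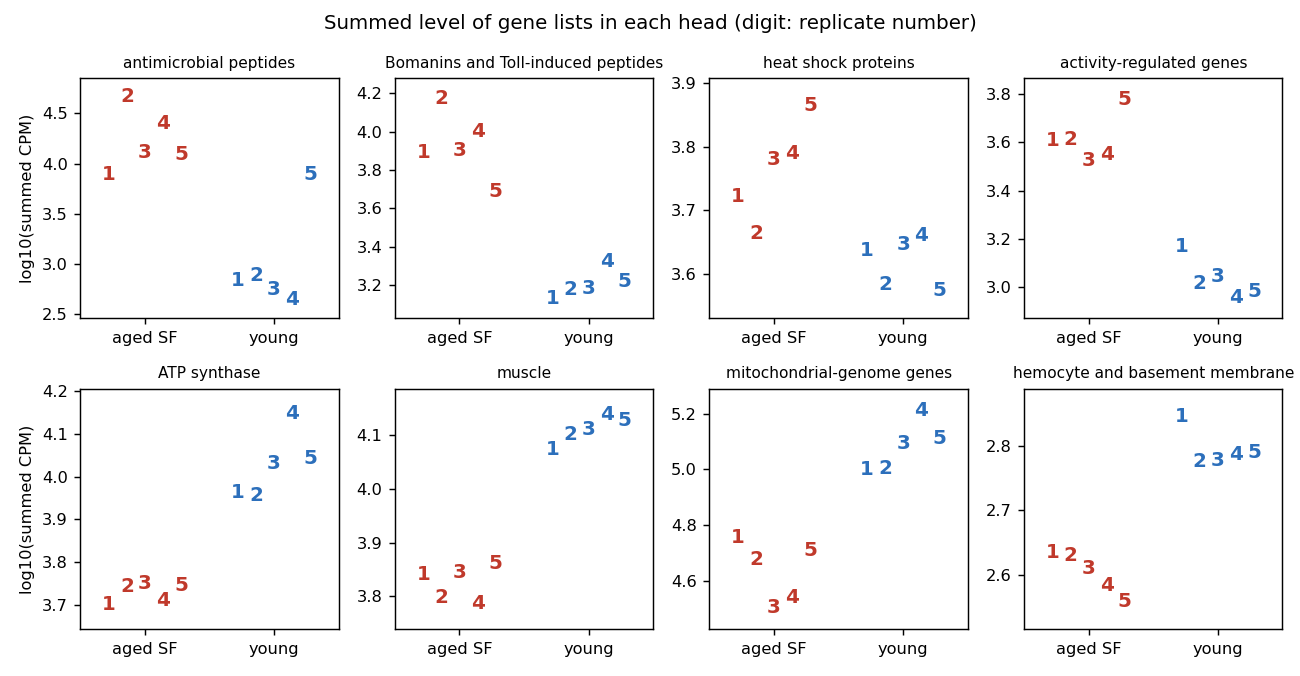
Summed level of 8 gene lists in each of the 10 heads, as log10 of CPM on the vertical axis, with aged SF heads on the left in red and young heads on the right in blue and the digit giving the replicate number. Young head 5 reaches aged SF head 1 for antimicrobial peptides, and the groups are apart for the other 7 lists.

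The summed lists showed which flies stood out. Aged SF head 2 was the highest for both peptide lists and the lowest of its group for heat shock genes (4602 CPM, against 3742 to 4578 CPM in young heads). Aged SF head 5 was the highest for heat shock genes (7315 CPM) and for activity-regulated genes.

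Few genes of protein turnover and translation changed. Of 84 cytosolic ribosomal protein genes 7 rose and 4 fell (median -0.085), below the 13% and 12.2% of all genes. RpS29 (0.84) rose most and RpL22 (-0.66, with 34.3% of its exonic sequence shared with another gene) fell most. The number that fell was 18 without young head 1, 10 without young head 2, 2 without aged SF head 1 or 2 or young head 3 and 1 without aged SF head 3 or young head 4 or with the compared groups alone. The number that rose was 4 without aged SF head 5 or young head 2 or 3 and 3 without aged SF head 4. Of 31 proteasome genes 5 rose (16.1%, near the share of all genes) and none fell (median 0.12), and Prosalpha6 (0.66) had the smallest adjusted p. That count was 3 without aged SF head 4 or 5 or with no filter, 2 without aged SF head 3 and 1 without young head 2 or 5. Of 21 autophagy genes 1 rose and 1 fell. The one that rose was ref(2)P (1.02, adjusted p = 1.09e-05), the fly p62, whose protein marks cargo for degradation, and the one that fell, Atg4a (-0.41, adjusted p = 0.0296), was not called without aged SF head 1, 4 or 5 or young head 4 or 5 or with no filter (adjusted p of 0.0539 to 0.119) and shares 51.4% of its exonic sequence with another gene.

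Of 66 cytochrome P450 genes 5 rose (7.58%) and 10 fell (15.2%), near the 13% and 12.2% of all genes (median -0.21). The number that rose was 3 without young head 2. Cyp18a1 (-2.65), which inactivates the steroid hormone ecdysone, and Cyp4ac1 (-1.6) fell, and Cyp6a16 (4.01, and 6.6 without young head 1) and Cyp4e3 (1.55) rose. Of 14 cuticular protein genes 4 rose and 4 fell (28.6% each; median -0.58). The number that fell was 2 without aged SF head 1, 2 or 4 or young head 4. Cpr49Ac and Cpr47Eb had no read in any young head. They were at least about 15-fold and at least about 5.73-fold higher in aged SF heads, against a floor of 3 reads in each young library before TMM scaling. Of 14 monoamine and pigment enzyme genes 4 rose (28.6%) and 3 fell (21.4%; median 0.028). The number that fell was 1 without aged SF head 1 or 5 or young head 1 or 3. The pigment genes yellow-b (1.73) and yellow-c (0.99, 74.8% shared with another gene) rose along with e and ple.

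Further large changes fell outside the lists. The lens protein gene Cry (-3.52, and -4.11 without aged SF head 4), the sorbitol dehydrogenase gene Sodh-1 (-2.79, and -2.04 without young head 4) and dare (-2.28), whose product feeds electrons to steroid-making enzymes, fell. Pex7 (-2.25, adjusted p = 0.0235), a receptor for import into peroxisomes, lost its call without aged SF head 1, 2 or 5 or young head 3 or 4 (adjusted p of 0.0568 to 0.0644) and stood at -3.37 without aged SF head 3. PebIII, an abundant secreted protein gene, rose by 0.89 on the log2 scale. The RNA helicase gene mle (FBgn0002774, chromosome 2R, 5974857 to 5980778, minus strand), part of the dosage compensation complex of the male X chromosome, had 297, 341, 289.97, 303 and 334 CPM in aged SF heads, against 105, 89.1, 109, 125 and 85.7 CPM in young heads, a narrow spread around a gap of 1.61 ± 0.12 on the log2 scale (adjusted p = 4.7e-10).

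A few genes were all but gained or lost. The limit was at least 10 reads in every head of 1 group and at most 10 in all heads of the other. By it 17 genes were present in aged SF and all but absent in young heads, and 4 were present in young and all but absent in aged SF heads. Aged NSF heads held reads of all 17 too, from 56 for CG14191 to 1469 for SPH93, so that their presence was not particular to aged SF heads. CG9676 (FBgn0030773, chromosome X, 16699152 to 16700170, minus strand) had 0, 0.443, 0, 0 and 0 CPM in aged SF heads, against 103, 1205, 882, 368 and 739 CPM in young heads, which is 1 read against 8451. CG8329 (FBgn0036022, chromosome 3L, 9638112 to 9639021, plus strand) had 0.812, 0, 1.73, 0 and 0.441 CPM in aged SF heads, against 583, 3011, 2443, 1105 and 1467 CPM in young heads, 7 reads against 21638. CG7829 had no read in aged SF heads and 21.3 to 207 CPM in young heads, so that it was at least about 78.3-fold lower in aged SF heads, and CG11211 had 1 read against 3265. All 4 were lowest in young head 1 and highest in young head 2. Aged NSF heads held 2, 4, 0 and 1 reads of these 4 genes. Of the gained genes CG11370 had 51.5, 62.9, 196, 169 and 47.6 CPM in aged SF heads, against 0, 0, 0.648, 0.506 and 0 CPM in young heads (log2 fold change 8.88 ± 0.84, adjusted p = 3.33e-06, and 9.47 without young head 3). CG9757 had 260 reads against 0, at least about 17.4-fold higher, with aged SF head 5 (58.6 CPM) far above the other 4 (12.2 to 14.8 CPM).

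The shares were alike across the large chromosomes and differed on chromosome 4. On chromosomes X, 2L, 2R, 3L and 3R 10.7 to 15.1% of tested genes rose and 11.3 to 13.02% fell. On chromosome 4, a small and mostly heterochromatic autosome, 2 of 84 genes rose (2.38%) and 23 fell (27.4%), with a median log2 fold change of -0.21. In aged NSF relative to young heads 1 of these 84 rose and 10 fell (median -0.084), where 11.4% of all genes rose and 11.5% fell. The number that fell there was thus near the share of all genes. With genes split into 4 equal classes of exonic length the shares stayed between 11.3 and 14.4% up and 11.3 and 13.5% down.

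Fragmented sleepers were also set against normal sleepers of the same age. Between aged SF and aged NSF heads 23 of 9088 genes passed (0.253%), 20 higher (0.22%) and 3 lower (0.033%) in aged SF heads, with 848 genes at an unadjusted p under 0.05. It was 88 with DESeq2, 56 with no filter, 36 with the compared groups alone and 9 to 61 with 1 head left out: 9 without aged SF head 3 or 4, 10 without aged SF head 1 or aged NSF head 4, 11 without aged NSF head 5, 15 without aged SF or aged NSF head 2, and 61 without aged SF head 5. In aged NSF relative to young heads 2075 genes changed (22.8%), 1032 up and 1043 down. Set side by side, and with the young heads shared, the lists had medians of 3.76 in aged SF and 4.76 in aged NSF heads for antimicrobial peptides, 1.43 and 0.50 for heat shock genes, -1.04 and -0.86 for ATP synthase, -0.98 and -0.49 for mitochondrial-genome genes, -1.03 and -0.22 for hemocyte and basement membrane genes, and -0.37 and -1.56 for fat body genes. The direct contrast of aged SF with aged NSF heads passed for 1 gene of the mitochondrial-genome list, 1 of the hemocyte list and none of the other 4.

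**Figure D5:**
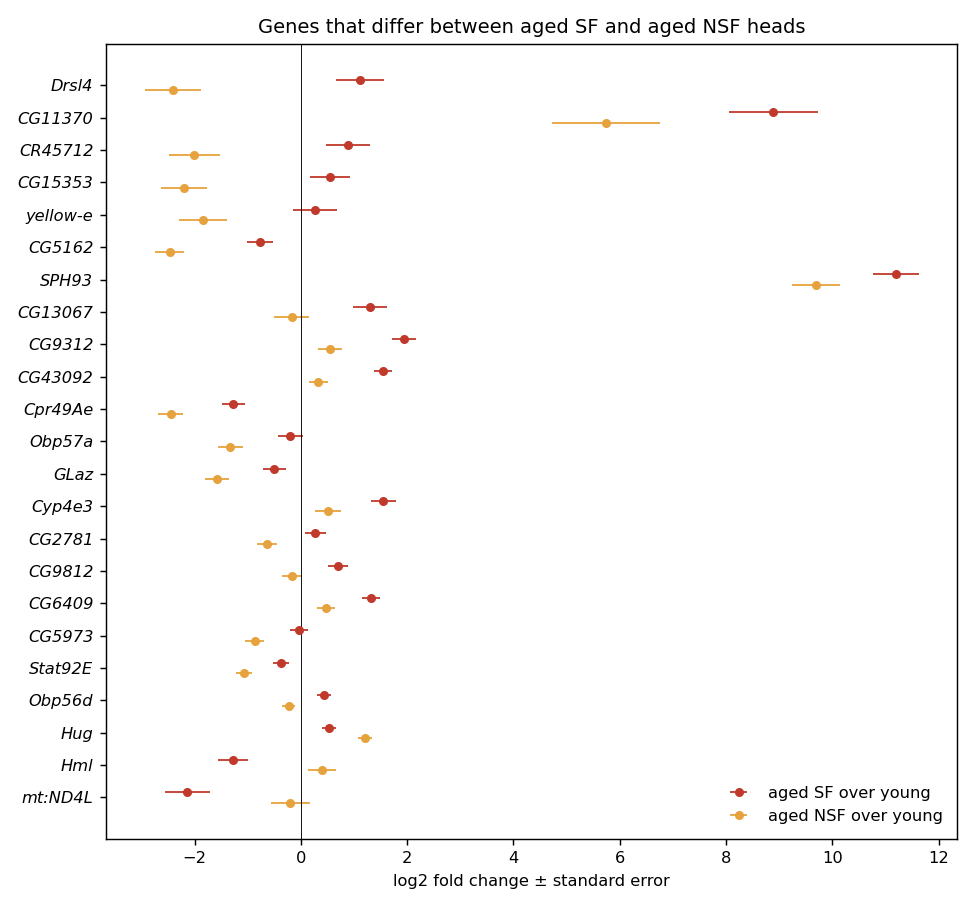
Log2 fold change with its approximate standard error, relative to young heads, of the 23 genes that differed between aged SF and aged NSF heads, with aged SF in red above aged NSF in orange for each gene. SPH93 and CG11370 are far above young heads in both, and the aged SF points of Hml and mt:ND4L lie left of 0.

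The 23 genes stood in several relations to the young heads. SPH93 was 11.19 in aged SF and 9.69 in aged NSF heads on the log2 scale relative to young heads, and CG11370 was 8.88 and 5.74. CG9312 (1.93 and 0.55), CG43092 (1.55 and 0.33), CG6409 (1.32 and 0.47) and CG13067 (1.29 and -0.17) rose in aged SF heads. Hml was -1.27 in aged SF and 0.4 in aged NSF heads, and its direct difference, aged SF minus aged NSF, was -1.67 (adjusted p = 0.00346). The neuropeptide gene Hug, precursor of pyrokinins, had 132, 145, 135, 127 and 137 CPM in aged SF heads and 86.0, 80.5, 113, 91.5 and 100.1 CPM in young heads. It was 0.52 in aged SF and 1.21 in aged NSF heads, so that the aged SF level lay between the other groups. Stat92E (-0.37, adjusted p = 0.0664), GLaz (-0.5, adjusted p = 0.0951) and Drsl4 (1.11, adjusted p = 0.0933) did not pass between aged SF and young heads (each passed without 1 or 2 of the heads, at adjusted p of 0.0292 to 0.0493), and their log2 fold changes in aged NSF relative to young heads were -1.08, -1.57 and -2.41. Of these genes SPH93, Hml, CG9312 and CG43092 passed the direct contrast in 15 of 15 fits with 1 head left out, CG11370 and Drsl4 in 13, Hug in 12, CG6409 in 9, Stat92E and GLaz in 7 and CG13067 and mt:ND4L in 5. With the compared groups alone CG11370 and CG6409 did not pass it (adjusted p = 0.0834 and 0.0976).

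The same comparison in the bodies differed for some genes. In a fit of all 30 libraries the change from young to aged SF flies was not the same in head and body for 845 of 12318 genes (6.86%). The log2 fold change was higher in the head for 200 genes (1.62%) and lower for 645 (5.24%). The labels do not state whether a head and a body of the same number came from the same fly. The fit took them as separate flies, and a pairing of head with body was not tested. The median of this difference was -0.15 over all genes. With RLE scaling it was 0.057 and the split was 343 higher to 250 lower. The larger side also turned with 1 body left out: the split was 292 to 154 without aged SF body 1, 363 to 217 without aged SF body 4, 381 to 217 without aged NSF body 3, and 340 to 200, 279 to 143 and 296 to 165 without young body 2, 3 and 5. Which side is larger thus rests on the scaling and on single libraries. The 12 genes below kept sign and call in all 30 fits with 1 library left out and with RLE scaling.

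Mle stood out again, at 273 ± 17.7 CPM in aged SF heads and 93.7 ± 12.8 CPM in young heads, and at 41.1 ± 8.44 CPM in aged SF bodies and 35.6 ± 6.35 CPM in young bodies, a head-minus-body difference of 1.33 ± 0.2 on the log2 scale, adjusted p = 7.49e-05. CPM in this paragraph are scaled over all 30 libraries. Amy-p rose in both tissues and more in the head, at 344 ± 176 CPM in aged SF heads and 14.6 ± 5.43 CPM in young heads, and at 1225 ± 239 CPM in aged SF bodies and 595 ± 229 CPM in young bodies (3.49 ± 0.48 on the log2 scale, adjusted p = 3.38e-05). The cytoplasmic actin gene Act42A was at 155 ± 36.9 CPM in aged SF heads and 27.4 ± 8.97 CPM in young heads, and at 487 ± 58.6 CPM in aged SF bodies and 428 ± 85.4 CPM in young bodies (2.31 ± 0.3 on the log2 scale, adjusted p = 2.1e-05). The muscle actin gene Act79B was at 31.6 ± 8.47 CPM in aged SF heads and 44.3 ± 12.9 CPM in young heads, and at 239 ± 62.1 CPM in aged SF bodies and 1512 ± 255 CPM in young bodies (2.16 ± 0.31 on the log2 scale, adjusted p = 3.82e-05). In the fit of heads alone Act79B did not pass between aged SF and young heads (log2 fold change -0.43, adjusted p = 0.174), and its larger difference was the lower level in aged SF bodies. Dip-B (1.32) and Taf12L (4.73, and 7.92 without young head 2) were the other 2 with a higher change in the head. Some complex I genes of the mitochondrial genome, picked by their adjusted p, went apart. Of these mt:ND5 was at 370.2 ± 66.8 CPM in aged SF heads and 973 ± 379.6 CPM in young heads, and at 970.03 ± 218 CPM in aged SF bodies and 278 ± 65.8 CPM in young bodies (-3.2 ± 0.31 on the log2 scale, adjusted p = 1.67e-07), and mt:ND4 (-2.18) and mt:ND4L (-4.91) followed. Body levels of the other mitochondrial-genome genes are not given here. The mitochondrial phosphate carrier gene Mpcp was at 477 ± 37.6 CPM in aged SF heads and 1301 ± 153 CPM in young heads, and at 562 ± 89 CPM in aged SF bodies and 597 ± 63.1 CPM in young bodies (-1.36 ± 0.18 on the log2 scale, adjusted p = 2.28e-05), and dare (-2.93) and the histone variant gene His3.3B (-1.05) also had a lower change in the head.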

How the data were processed

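Poly(A) RNA of single heads and bodies was sequenced on an Illumina instrument. Per the labels' design text, the authors trimmed adapters with Trimmomatic, mapped reads to dm6 with STAR, removed alignments of mapping quality below 8 and non-primary ones, and counted reads on exons with HTSeq-count, which gave the deposited counts per gene, without normalization. Versions, strand setting and gene annotation are not given in the sources used here, so it is not known how reads on overlapping genes were assigned. The authors' deposited DESeq2 table holds log2 fold changes and q values (an adjusted p-value), and its gene names could be matched to the values only for the aged SF over aged NSF heads, so that for other pairs only the number of entries and their signs were used.

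Groups follow the sample titles. Counts were tested with edgeR 4.0.16 (R 4.3.3): library sizes were scaled by TMM, low genes were removed with filterByExpr, and the quasi-likelihood model (robust) was fitted to the 3 head groups together, with a contrast per pair. The threshold was a Benjamini-Hochberg adjusted p of 0.05. Head and body were compared as an interaction contrast in a fit of all 30 libraries. Errors of log2 fold changes are approximate standard errors, worked back from each log2 fold change and the F statistic of its test. For SPH93, with 1 read in young heads, the counting interval given is wider than this error implies. CPM use TMM-scaled library sizes. Data were simulated from the mean of each gene over all 3 head groups, with 200 genes changed. There, 58% of 2-fold and 94% of 4-fold changes were recovered and 0.103% of unchanged genes were called. Far fewer genes changed there than were called in the real heads, so these rates need not hold for the real comparison. Intervals and floors (3 reads) cover counting error only. No pair of replicates within a group was a copy (lowest chi-square per gene 4.50 over 60 pairs).

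Of the list symbols 4 were not found. Named genes follow a rule on the aged SF against young heads, among changed genes of at least 1 CPM: 12 per direction by fold change and 6 by change in CPM, without bare CG or CR symbols, 3 per direction with any symbol, up to 5 per list by adjusted p, every gene that differed between aged SF and aged NSF heads, and 6 per direction for head minus body. Not all of them are described. Members that did not pass, a few further list members (Rel, PGRP-LB, Hsp26, VGAT, Cha, VGlut, alrm, Mip, Lip3), the gained and lost genes beyond the rule and the chromosome 4 result were chosen after their values were seen. The members and lists were chosen with earlier results of these data known. Symbols are those of the count table, and coordinates come from a current annotation of BDGP6 (dm6) with 17253 of the 17559 gene IDs.

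Alternatives were RLE scaling, no filter, a filter of 5 CPM in at least 5 libraries, a 2-fold minimum, DESeq2 1.42.0, only the compared groups, the replicate number as a block, and each library left out in turn.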

Additional observations from a re-analysis of the deposited data

Results flagged for a closer look

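In groups of 5 heads a head was flagged where its gap to the nearest other head, as a share of the range of its group, passed 0.71, a limit that chance passes in about 1 group in 20. Of 372 gene and group pairs 44 were flagged, and the shares follow in brackets. Young head 5 was high for AttA (0.906), AttC (0.921), CecA1 (0.841), CecA2 (0.871), CecB (0.737), Dpt (0.962), Dro (0.908), Nplp3 (0.776), PGRP-SC2 (0.932), SPH93 (1) and edin (0.863). Aged SF head 2 was high for AttC (0.791), CG9676 (1), Cyp6a16 (0.803), Dpt (0.719), GNBP-like3 (0.769), Hayan (0.79), Tep2 (0.711), Tep4 (0.74) and edin (0.754). Aged SF head 5 was high for Arc1 (0.717), CG11211 (1), CG9757 (0.944), GstD1 (0.811), GstD2 (0.746) and Trx-2 (0.843). Young head 1 was high for CG43092 (0.724), Cyp6a16 (0.933), Dif (0.801), Hsp70Ab (0.8), ninaE (0.729) and spz (0.944). Young head 4 was high for Sodh-1 (0.826), cry (0.792) and tobi (0.754). Aged SF head 3 was high for CdsA (0.718), Hex-C (0.733) and Obp19b (0.743). Singly flagged were aged SF head 1 for Cg25C (0.722), aged SF head 4 for Taf12L (0.711), young head 2 for Taf12L (1) and young head 3 for upd3 (0.842). Heads that were low were aged SF head 3 for InR (0.787) and young head 1 for Obp56a (0.722). The genes with no read in the other heads of the group, flagged at 1, rest on 1 to 4 reads. In young head 5 the flagged peptide genes stood at 889.96 CPM for AttA, 1898 CPM for AttC, 1259 CPM for Dpt and 1411 CPM for Dro, where the next young head held 108, 197, 64.4 and 145 CPM.

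The change in aged SF flies differed between head and body, by the interaction test, for 12 genes named above: dare (-2.93), mt:ND4L (-4.91), mt:ND5 (-3.2), Amy-p (3.49), Act42A (2.31), Act79B (2.16), mle (1.33), Dip-B (1.32), Taf12L (4.73), Mpcp (-1.36), mt:ND4 (-2.18) and His3.3B (-1.05), each as the log2 fold change in the head minus that in the body, beside a median of -0.15 over all genes.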

How the results depend on the processing

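The number of genes changed between aged SF and young heads was 913 with a 2-fold minimum, 2527 with DESeq2, and between 2182 and 2472 with RLE scaling, no filter, a stricter filter, the compared groups alone or a replicate block, and it ran from 1928 to 2377 with 1 head left out. Between aged NSF and young heads it was 883 with a 2-fold minimum and 1732 to 2119 with 1 head left out. Between aged SF and aged NSF heads the 23 genes became 88 with DESeq2, 56 with no filter, 36 with the compared groups alone, 63 with a replicate block, 16 with a 2-fold minimum and 9 to 61 with 1 head left out. For head minus body the 845 genes became 491 with a 2-fold minimum, 564 with no filter, 593 with RLE scaling and 422 to 1026 with 1 library left out, and the split of higher against lower was 343 to 250 with RLE scaling and 554 to 396 with DESeq2, in place of 200 to 645, and it ran from 143 to 217 lower where 1 body left out turned it. The cause of these shifts was not tested, apart from the 2-fold minimum, which removes genes by construction.

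The replicate numbers did not pair the heads: deviations of aged SF and young heads with the same number correlated at -0.0416 to 0.0497, and 1 of 5 aged SF heads correlated best with its own number. With the replicate block 2472 genes changed between aged SF and young heads, 2234 between aged NSF and young heads and 999 for head minus body. With it Tsf1 had an adjusted p of 0.0691, while AttC (0.0301), Dpt (0.0219), elav (0.0448), Stat92E (0.0301), GLaz (0.0381) and Drsl4 (0.0138) passed. In the lists 1 Turandot or JAK-STAT gene and 2 autophagy genes then fell, and 2 genes of glycolysis and 1 of phototransduction rose. Of 3942 gene values of the aged SF and young comparison under the alternatives, 3869 kept direction and call, 40 lost the call, 21 gained it and 12 changed sign, all of genes that passed in neither fit. With the replicate block Dif was 0.22. With 1 head left out Dif ran from -0.32 to 0.72, Tl from -0.030 to 0.25, TotA from -0.39 to 0.17, brp from -0.195 to 0.020, ninaE from -0.018 to 0.24 and repo from -0.18 to 0.045. Of 1512 counts within lists 56 moved by more than 1.5 times. For the 23 genes of aged SF against aged NSF heads 118 of 483 values lost the call, and for head minus body 432 of 432 values kept it. At this depth a gene without reads can stand at up to 1.78 CPM, and 48.2% of the genes in the table had too few reads to be tested in heads.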

Other observations

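Some of the smallest adjusted p-values belonged to genes outside the lists, picked here after their values were seen. Among those that rose were the metalloproteinase gene Mmp1 (log2 fold change 2.53 ± 0.17, adjusted p = 2.62e-11), the integrin alpha chain gene scb (2.77, adjusted p = 4.82e-12) and the matrix protein gene Tig (2.01, adjusted p = 4.4e-09). Others were the transcription factor gene Ets21C (2.71, adjusted p = 1.43e-08), the actin-binding gene cib (2.38, adjusted p = 4.82e-12) and the chitinase-like growth factor gene Idgf3 (1.69, adjusted p = 6.66e-09). Among those that fell were the citrate synthase gene kdn (326 ± 31.1 CPM in aged SF heads and 975 ± 129 CPM in young heads (SD, n = 5 each); log2 fold change -1.58 ± 0.13, adjusted p = 9.13e-10), the ADP/ATP carrier gene sesB (-0.93, adjusted p = 9.37e-07), the glycerol-phosphate dehydrogenase gene Gpdh (-1.75, adjusted p = 1.41e-06), the proton pump gene Vha68-1 (-1.24, adjusted p = 2.9e-08) and the synaptic vesicle gene Syngr (-1.28, adjusted p = 1.48e-07).

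On chromosome 4 the 23 genes that fell include the kinase gene CaMKII (-0.43, adjusted p = 0.00991), the calcium pump gene PMCA (-0.42, adjusted p = 0.0168), the glutamate receptor gene mGluR (-0.57, adjusted p = 0.0296) and the secretion gene Caps (-0.44, adjusted p = 0.00826), beside ATPsyn-beta and Rfabg, which the energy and lipid lists also hold. The 2 that rose were 4E-T (0.63, adjusted p = 0.039) and CG33978 (1.3, adjusted p = 7.45e-05).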
